A study of Mus musculus with 6 samples.

Results

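The unfolded protein response genes described here are Herpud1, Ddit3, Atf4, Atf5, Xbp1, Hspa5, Hsp90b1 and Calr, taken as every probe that the platform annotation gives one of these symbols alone. They make up 8 of the 9472 named genes with a value on all arrays, and are covered by 12 probes, of which 11 were measured on all 6 arrays. RAW 264.7 is a mouse macrophage cell line, and its name is also written RAW 264.4 in part of the labels. Treated cells had 100 ng/ml lipopolysaccharide (LPS, a cell wall component that macrophages sense through Toll-like receptor signalling) together with 100 pM LPS-binding protein (LBP, a serum protein that delivers LPS to its receptor) for 2 h, and control cells had neither for 2 h. Each of 6 arrays carried total RNA of both conditions, 3 with the treated RNA in the red dye Cy5 (direct arrays) and 3 with it in the green dye Cy3 (swapped arrays), numbered as sets 1 to 3 in each orientation. The comparison asks how far the transcripts of this stress pathway differ after 2 h with LPS and LBP. Whether each set came from its own culture is not in the labels, so p-values measure only the spread between these sets, which may be technical. LPS alone and LBP alone were not analysed here.

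When unfolded proteins build up in the endoplasmic reticulum (ER), the sensors PERK, IRE1 and ATF6 start the unfolded protein response. PERK slows translation while letting the transcription factors ATF4 and ATF5 be made, and ATF4 raises Ddit3, which encodes the factor CHOP. IRE1 splices the Xbp1 transcript into the form that encodes an active factor, and this factor and ATF6 raise ER chaperones and genes of ER-associated degradation. In macrophages, Toll-like receptor signalling is known to engage IRE1 and to restrain parts of the PERK arm. A ratio of total transcript does not tell spliced from unspliced Xbp1, and ATF4 and ATF5 are controlled largely at translation.

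The promoters of the ER-resident members are shown because they hold matches to elements that ATF6 and XBP1 are known to bind. Windows of 250 bases before the start of each gene came from RefSeq (GRCm38.p6) for all 8 members, 9 windows in all, since Atf5 has a pair of starts. Both strands were searched for the ER stress response element ERSE (CCAAT, then 9 bases, then CCACG), ERSE-II (ATTGG, then 1 base, then CCACG), the element UPRE (TGACGTGG) and the C/EBP-ATF composite site (TTGCATCA). Capitals mark the fixed bases of each match. The Herpud1 window (chr8:94386179-94386428, plus strand) held a composite site 112 to 105 bases and an ERSE-II 52 to 42 bases before the start. The Hspa5 window (chr2:34771840-34772089, plus strand) held an ERSE 65 to 47 bases before the start.
Herpud1: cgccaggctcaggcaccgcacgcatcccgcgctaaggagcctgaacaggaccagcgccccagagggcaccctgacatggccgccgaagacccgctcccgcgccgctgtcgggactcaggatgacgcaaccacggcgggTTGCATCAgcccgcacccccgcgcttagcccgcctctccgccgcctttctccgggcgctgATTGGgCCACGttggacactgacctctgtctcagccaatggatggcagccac
Hspa5: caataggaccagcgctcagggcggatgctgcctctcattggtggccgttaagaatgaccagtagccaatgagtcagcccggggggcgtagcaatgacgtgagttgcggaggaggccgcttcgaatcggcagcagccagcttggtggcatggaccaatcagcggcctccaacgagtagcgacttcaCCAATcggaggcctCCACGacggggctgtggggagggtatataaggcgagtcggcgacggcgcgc

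The Hsp90b1 window, on the minus strand of chromosome 10, held a pair of ERSE matches, and that of Calr, on the minus strand of chromosome 8, held 1. They are given along the gene, so the matches that run against it begin with CGTGG, the reverse complement of CCACG. Those of Hsp90b1 lie at chr10:86705638-86705656 and chr10:86705533-86705551, and that of Calr at chr8:84847075-84847093.
Hsp90b1, along the gene: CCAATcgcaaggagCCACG
Hsp90b1, against the gene: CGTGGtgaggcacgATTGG
Calr, against the gene: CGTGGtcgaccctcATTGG

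Among 32851 RefSeq windows of that length, 0.113% held an ERSE, 0.0304% an ERSE-II, 0.563% a UPRE and 0.791% a composite site. The 4 members Ddit3, Atf4, Atf5 and Xbp1 had no match, which says only that these letters are not in these windows. A match describes the sequence and not its use in these cells.

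Of the 8 members, 4 were higher after LPS and LBP, 1 was lower and 3 did not pass the threshold. Herpud1 rose most, by 2.79-fold, followed by Ddit3 at 1.40-fold, Atf5 at 1.27-fold and the ER chaperone gene Hspa5 at 1.17-fold. Xbp1 fell 1.50-fold. Atf4 and the chaperone genes Hsp90b1 and Calr did not pass. The background of the comparison is that 14.8% of all 11231 measured features passed, 7.35% higher and 7.45% lower (limma, Benjamini-Hochberg adjusted p under 0.05, 1663 features). For the members the share was 62.5%, and their median log2 ratio was 0.19, beside -0.00 for all features. This share is only a description, since the members were chosen with earlier results of these data known. Only 3 members passed on the direct arrays alone, without set 3, without the swapped array of set 1, or without either single array of set 2. Fewer of all features passed as well: 5.69% on the direct arrays alone, 5.01% without set 3 and 4.75% without the direct array of set 2. The values are log2 ratios of treated over untreated cells, as mean ± SD of the 3 sets, each set being the mean of its pair of dye-swapped arrays. They compare bulk RNA, in which fewer cells with a transcript and less transcript per cell cannot be told apart.

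**Figure D1:**
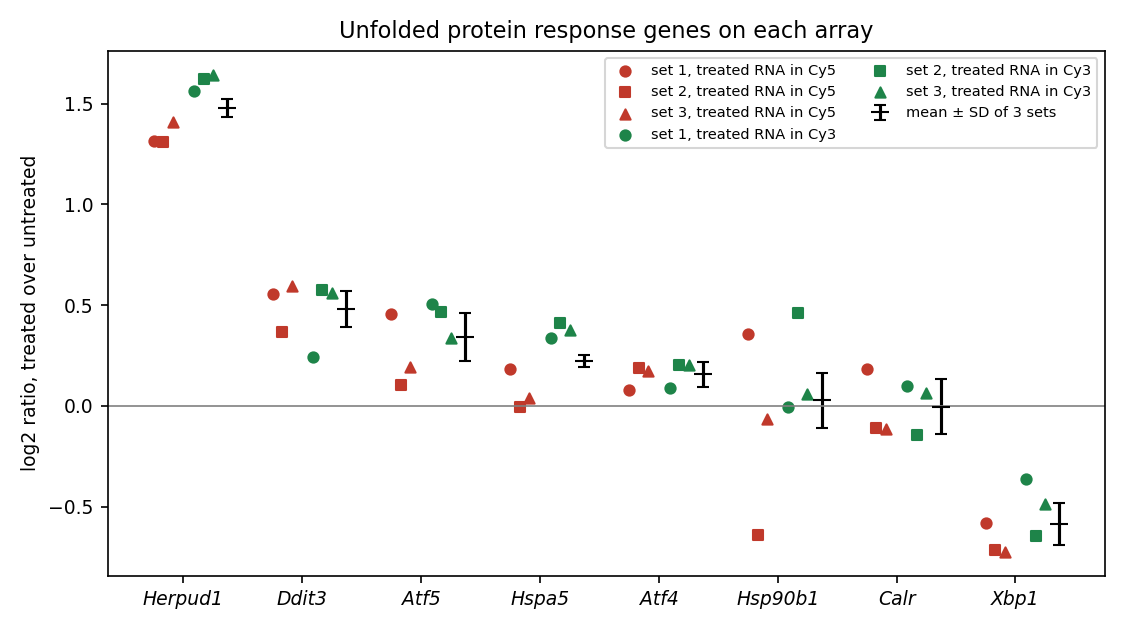
Log2 ratio of treated over untreated cells (y axis) for each of the 8 genes (x axis, ordered by mean); red points are arrays with the treated RNA in Cy5, green points the swapped arrays, symbols the sets, and black bars the mean ± SD of 3 sets. Herpud1 lies between 1.31 and 1.64 on the 6 arrays, above every value of the other genes, and Xbp1 lies between -0.72 and -0.36, while Hsp90b1 and Calr have values on both sides of 0.

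Herpud1 encodes an ER membrane protein with a ubiquitin-like domain that takes part in ER-associated degradation. Its probe measured on all arrays gave log2 ratios of 1.32, 1.31 and 1.41 in sets 1, 2 and 3 on the direct arrays, and of 1.56, 1.62 and 1.64 on the swapped arrays. All 6 were well above 0, and the swapped arrays lay above the others without overlap. The sets averaged 1.44, 1.47 and 1.53, which gave a mean of 1.48 ± 0.04 (SD, n = 3 sets; 95% interval 1.37 to 1.59; limma adjusted p = 1.63e-05). This was rank 73 from the top among 11231 features. A second Herpud1 probe, measured on 5 arrays, did not show the rise. Turned to treated over untreated, it stood at -0.40 and -0.22 on the direct arrays of sets 1 and 3, and at 0.57, 0.05 and 0.69 in sets 1 to 3 on the swapped arrays. Before turning, all 5 of its values leaned to Cy3, whichever RNA that dye marked. With this probe averaged in (missing arrays allowed), Herpud1 stood at 0.90 (adjusted p = 0.00131), and with its exact zero kept as a ratio at 0.80 (adjusted p = 0.000613). The size of the Herpud1 rise thus rests on the completely measured probe.

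**Figure D2:**
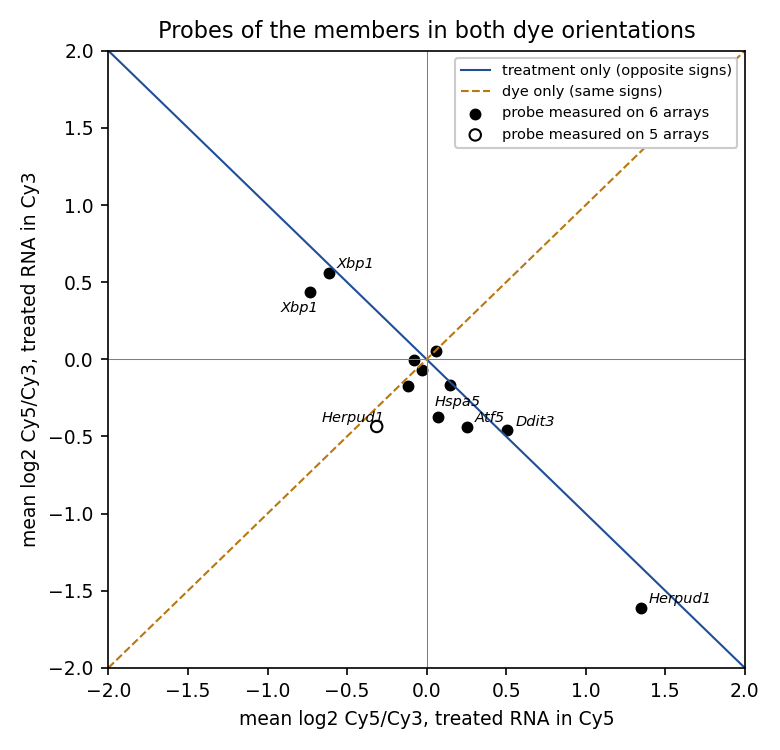
Mean log2 ratio of Cy5 over Cy3 for each of the 12 probes on direct arrays (x axis) and on swapped arrays (y axis, sign not turned); filled points are probes measured on 6 arrays and the open point is the second Herpud1 probe, measured on 5. A pure treatment effect falls on the solid line and a pure dye effect on the dashed line, and the open point lies near the dashed one, with means of -0.31 and, once turned, 0.44.

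Ddit3 encodes CHOP, a C/EBP family factor of the PERK arm that is tied to cell death under lasting ER stress. Its log2 ratios were 0.56, 0.37 and 0.60 on the direct arrays of sets 1 to 3 and 0.24, 0.58 and 0.56 on the swapped arrays. All 6 were positive and the orientations overlapped. The mean was 0.48 ± 0.09 (SD, n = 3 sets; 95% interval 0.36 to 0.61; limma adjusted p = 0.00216). On the swapped arrays alone it stood at 0.46 and did not pass (adjusted p = 0.0686).

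Atf4 encodes the factor that PERK signalling lets through translation. Its log2 ratios were 0.08, 0.19 and 0.18 on the direct arrays and 0.09, 0.20 and 0.21 on the swapped arrays, for sets 1 to 3. All 6 were positive but small, and set 1 was lowest in both orientations. The mean of 0.16 ± 0.06 (95% interval 0.04 to 0.27) did not pass (limma adjusted p = 0.0862). In fits to the 6 single arrays, the same mean passed with the set as a random replicate block (adjusted p = 0.0154) and with a dye term (adjusted p = 0.0338). The block fit used a negative correlation within sets (-0.44), which narrows the error of a mean. The dye-term fit counted the arrays of a set as independent. In these fits 20.3% and 16.6% of all features passed, beside 14.8% in the main one.

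Atf5 encodes a related factor that is known for its part in the response to mitochondrial stress. It had log2 ratios of 0.46, 0.10 and 0.19 on the direct arrays and of 0.50, 0.47 and 0.34 on the swapped arrays. All were positive, and set 1 was highest in both orientations. The mean was 0.34 ± 0.12 (95% interval 0.20 to 0.49; limma adjusted p = 0.0121). It did not pass on the direct arrays alone (0.25, adjusted p = 0.177) or without set 3 (0.38, adjusted p = 0.0791). Nor did it pass without 1 of 3 single arrays. These were the swapped array of set 1 (0.34, adjusted p = 0.0511), the swapped array of set 2 (0.28, adjusted p = 0.156) and the direct array of set 2 (0.40, adjusted p = 0.058).

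Xbp1, the transcript that IRE1 splices, went the other way. Averaged over its 2 probes, the log2 ratios were -0.58, -0.72 and -0.72 on the direct arrays of sets 1 to 3 and -0.36, -0.64 and -0.49 on the swapped arrays. All 6 were negative and set 1 was the least negative in both orientations. The mean was -0.59 ± 0.11 (SD, n = 3 sets; 95% interval -0.72 to -0.45; limma adjusted p = 0.00126), at rank 97 from the lowest of all features. Both probes gave the same mean of -0.59 and -0.58, with ranges of -0.76 to -0.38 and -0.78 to -0.35. The fall passed in each dye orientation alone, at -0.67 (adjusted p = 0.0167) on the direct arrays and -0.50 (adjusted p = 0.0438) on the swapped ones.

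The ER chaperones changed little or not past the threshold. Hspa5 encodes BiP, the chaperone that binds the sensors in their resting state and is a standard readout of ER stress. Its log2 ratios were 0.18, -0.01 and 0.04 on the direct arrays and 0.34, 0.41 and 0.38 on the swapped arrays. The orientations did not overlap, and only the swapped arrays were all clearly above 0. The mean was 0.22 ± 0.03 (SD, n = 3 sets; 95% interval 0.11 to 0.33; limma adjusted p = 0.0218). On the direct arrays alone it was 0.07 (adjusted p = 0.538), and on the swapped ones 0.38 (adjusted p = 0.0404). A fit to single arrays with no replicate block gave adjusted p = 0.0894. Hspa5 also failed to pass without set 1 (0.21, adjusted p = 0.0791), without set 3 (0.23, adjusted p = 0.17) and without any single array other than the direct array of set 3, at 0.15 to 0.29 (adjusted p of 0.0604 to 0.356).

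Hsp90b1 encodes endoplasmin, the ER member of the Hsp90 chaperones. Its log2 ratios were 0.36, -0.64 and -0.07 on the direct arrays and -0.01, 0.46 and 0.06 on the swapped arrays. Set 2 held both the lowest and the highest value, both of which leaned to Cy3 before turning. The mean was 0.03 ± 0.14 (95% interval -0.12 to 0.18; limma adjusted p = 0.829).

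Calr encodes calreticulin, a calcium-binding chaperone of glycoproteins. Its 3 probes averaged 0.18, -0.11 and -0.11 on the direct arrays and 0.10, -0.14 and 0.07 on the swapped arrays, for sets 1 to 3. Set 1 was positive and set 2 negative in both orientations. The mean was -0.0035 ± 0.14 (95% interval -0.16 to 0.15; limma adjusted p = 0.982), and its probes had means of 0.02, 0.0048 and -0.04. For these 2 chaperones the upper ends of the intervals, 0.18 for Hsp90b1 and 0.15 for Calr, lay below the means of Herpud1, Ddit3 and Atf5. The intervals rest on only 3 set means, and single arrays of Hsp90b1 reached 0.36 and 0.46. They do not exclude a small change.

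Set side by side within arrays, Herpud1 and Ddit3 stood apart from Xbp1. The log2 ratio of Herpud1 exceeded that of Xbp1 by 1.91, 2.15 and 2.13 in sets 1 to 3 (mean 2.06 ± 0.13), and by 1.90 to 2.27 on the 6 arrays. Ddit3 exceeded Xbp1 by 0.87, 1.15 and 1.18 (mean 1.07 ± 0.17), also on all 6 arrays. Against the chaperones, the difference for Herpud1 was 1.25 ± 0.07 from Hspa5, 1.45 ± 0.16 from Hsp90b1 and 1.48 ± 0.16 from Calr, positive on 6 of 6 arrays each. Averaging in the second Herpud1 probe with its zero kept brought these to 1.38 from Xbp1, 0.57 from Hspa5, 0.77 from Hsp90b1 and 0.80 from Calr. Ddit3 exceeded Hspa5 by 0.26 ± 0.11 (5 of 6 arrays, from -0.09 to 0.56), Hsp90b1 by 0.46 ± 0.20 and Calr by 0.49 ± 0.20 (6 of 6 arrays each). An exact two-sided sign-flip permutation test over the 3 sets gave p = 0.25 for each of these 8 differences, the smallest that this test allows with 3 sets, so by it none could pass 0.05. In the order of means, Ddit3, Atf5, Hspa5 and Atf4 have overlapping array ranges from each to the next, whereas the range of Herpud1 does not reach that of Ddit3 and the range of Xbp1 overlaps only that of Hsp90b1.

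**Figure D3:**
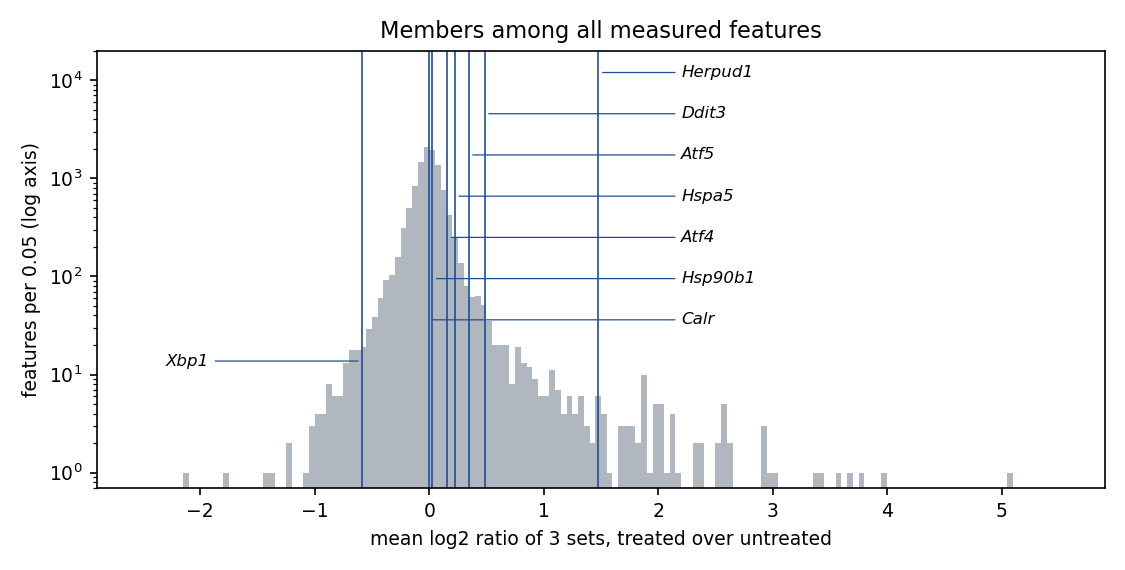
Number of features (y axis, log scale) by mean log2 ratio of 3 sets (x axis, bins of 0.05), with the 8 members marked by blue lines. Herpud1 at 1.48 lies in the upper tail and Xbp1 at -0.59 in the lower one, while Calr, Hsp90b1, Atf4 and Hspa5 lie in the bulk, which lies mostly between -0.26 and 0.29.

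The genes whose 6 values were nearest to a member, by the root mean square difference of log2 ratios over the 6 arrays among 9471 other named genes, had members' sizes by construction. For Herpud1 they were the immediate early factor gene Egr1 (mean 1.49, difference 0.12), the SNARE gene Stx11 (1.47, 0.12) and Birc3 (1.49, 0.12), which encodes an inhibitor of apoptosis. Those for Ddit3 were Srfbp1 (0.48, 0.08), Dmtf1 (0.44, 0.09) and Zc3h11a (0.44, 0.12). For Xbp1 they were the DNA damage kinase gene Chek2 (-0.56, 0.08), Sgpp1 (-0.55, 0.12), which encodes a sphingosine phosphate phosphatase, and the helicase gene Helb (-0.71, 0.13).

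Other genes of the pathway were followed in 8 lists, chosen with earlier results of these data known. In them, 81 of 115 listed genes had a value on all arrays. Of these, 9 were higher, 2 lower and 70 not past the threshold (11 in all), beside the 14.8% of all features. The count was 19 of the 81 with the set as a random replicate block, a fit in which 20.3% of all features passed. It was 17 with a dye term, where 16.6% of all features passed, and 7 on the direct arrays alone, where 5.69% did. Leaving out set 3 or the direct array of set 2 also gave 7, beside 5.01% and 4.75% of all features.

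Targets of the PERK and ATF4 arm held 5 higher and 1 lower gene among 15 tested, with a median of 0.13. This was 40.0% of the list, beside 14.8% of all features. The share is only a description, since the list was chosen with earlier results of these data known. The highest was Nupr1, a small stress-induced chromatin protein gene, at 1.55 ± 0.11 (2.92-fold, limma adjusted p = 2.65e-05). Atf3, a stress-induced repressor of the ATF family, stood at 0.99 ± 0.24 (1.99-fold, adjusted p = 0.00104). Slc7a11, which encodes the cystine transporter, stood at 0.76 ± 0.06 (1.69-fold, adjusted p = 0.000242), but a second probe measured on 4 arrays ranged from -1.99 to 1.72, and with it averaged in (missing arrays allowed) Slc7a11 was at 0.27 (adjusted p = 0.133). With exact zeros kept as ratios Slc7a11 was at 0.17 (adjusted p = 0.415). The other higher genes, outside the rule that named the 3 highest, were Ppp1r15a (0.67 ± 0.08, adjusted p = 0.0005), whose product GADD34 ends the PERK block of translation, and the factor gene Cebpb (0.58 ± 0.04, adjusted p = 0.000588). The lower one was Ddit4, which encodes an inhibitor of mTOR signalling, at -0.70 ± 0.09 (1.62-fold, adjusted p = 0.000515). Each of these 6 genes had the same sign on 6 of 6 arrays. Of the 9 genes that did not pass, picked here after their values were seen, asparagine synthetase (Asns) was at 0.16 ± 0.03 (adjusted p = 0.0716), the transporter subunit gene Slc3a2 at 0.17 ± 0.02 (adjusted p = 0.0507) and Phgdh of serine synthesis at -0.01 ± 0.32 (adjusted p = 0.975).

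The ER machinery that XBP1 and ATF6 are known to raise was described by 3 lists, of which 38 of 54 listed genes were tested. By limma 0 were higher, 1 was lower and 37 did not pass, while 14.8% of all features passed, 7.35% higher. An unadjusted p under 0.05 was found for 6 of them, beside 28.0% of all features. These lists leave out the members, of which Herpud1 and Hspa5 were higher. ER chaperones and folding enzymes held 0 higher and 1 lower gene of 17 (3 at an unadjusted p under 0.05). Their median was 0.02, over a range of -0.44 to 0.17. The lower one was Ero1b, an oxidase that makes disulfide bonds, at -0.44 ± 0.17 (1.35-fold, adjusted p = 0.0104, lower on 6 of 6 arrays). Ero1b did not pass without set 3 (adjusted p = 0.0716), without the swapped array of set 1 (0.0669), the swapped (0.0741) or direct (0.0512) array of set 2, or on the direct arrays alone (0.122). ER-associated degradation genes held 0 calls of 11 (1 at an unadjusted p under 0.05). Their median was 0.01, and the highest, the ubiquitin ligase gene Syvn1, was at 0.24 ± 0.15 (adjusted p = 0.0633). Herpud2, the close relative of Herpud1, was at -0.13 ± 0.15 (adjusted p = 0.267). Translocon and transport genes held 0 calls of 10 (2 at an unadjusted p under 0.05), and their median was also 0.01. With the set as a random replicate block, where the share over all features rises to 20.3%, 1 of the 11 degradation genes and 2 of the 10 translocon and transport genes were higher. Among the sensors, Ern1, the gene of IRE1, was at 0.05 ± 0.12 (adjusted p = 0.649), and the ATF6-cleaving protease gene Mbtps1 at -0.06 ± 0.01 (adjusted p = 0.48).

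**Figure D4:**
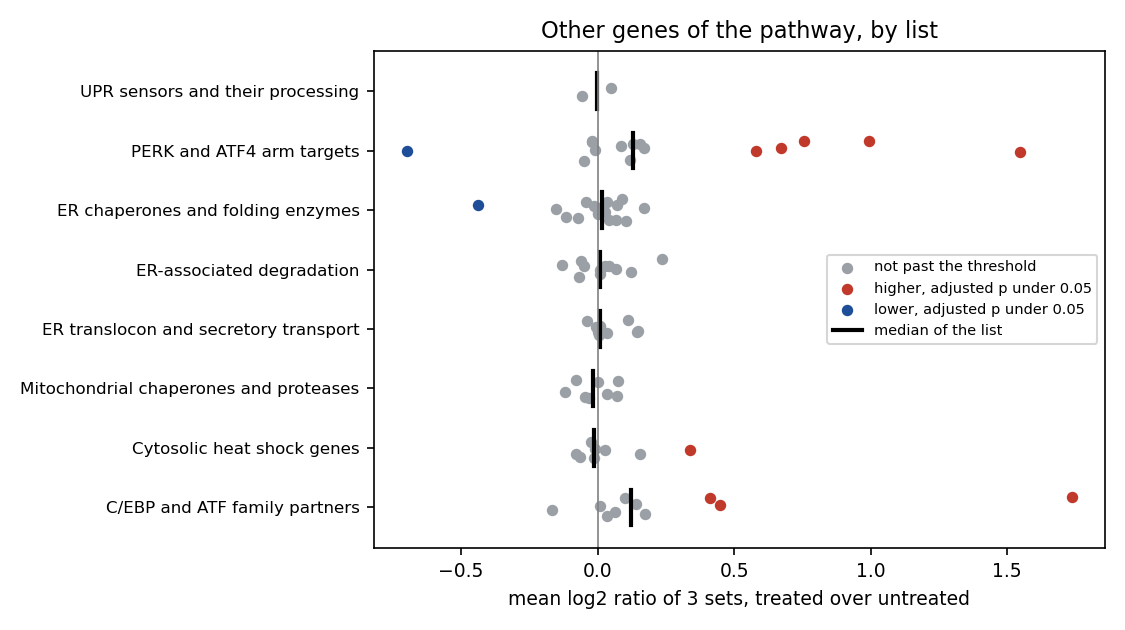
Mean log2 ratio of 3 sets (x axis) for each tested gene of the 8 lists (y axis; vertical position within a list is random); red genes are higher and blue genes lower at an adjusted p under 0.05, grey genes did not pass, and black bars are list medians. The coloured points lie mostly in the PERK and ATF4 list and the C/EBP and ATF family list, and the medians of the 8 lists lie between -0.02 and 0.13.

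Chaperones of other compartments were mostly near 0. Mitochondrial chaperones and proteases held 0 calls of 8 by limma (1 at an unadjusted p under 0.05, beside 28.0% of all features). Their median was -0.02. Cytosolic heat shock genes held 1 higher gene of 8 (12.5%, beside 14.8% of all features), and 2 with the replicate block or without set 2. The higher one was the constitutive Hsp70 gene Hspa8 at 0.34 ± 0.05 (1.26-fold, limma adjusted p = 0.00562, 6 of 6 arrays). Hspa8 did not pass without set 3 (adjusted p = 0.0602), without the swapped (0.0996) or direct (0.0556) array of set 2, or on the direct arrays alone (0.141). The stress-inducible Hspa1a and Hspa1b stood at -0.01 ± 0.19 and -0.03 ± 0.03 (adjusted p of 0.947 and 0.774). This pair of genes is nearly the same in sequence, so their values are uncertain as separate measurements.

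Possible partners of ATF4, CHOP and ATF5 in the C/EBP and ATF family held 3 higher genes of 10 and 0 lower, with a median of 0.12 and 5 at an unadjusted p under 0.05. Cebpd rose 3.33-fold (1.74 ± 0.08, limma adjusted p = 1.62e-05), Cebpa 1.36-fold (0.45 ± 0.18, adjusted p = 0.0101) and Batf 1.33-fold (0.41 ± 0.21, adjusted p = 0.0203), each on 6 of 6 arrays. Cebpa did not pass without set 3 (adjusted p = 0.0828), without the direct array of set 2 (0.058), or in either orientation alone (0.0569 and 0.0887). Batf did not pass without set 3 (0.13), in either orientation alone (0.0849 and 0.111), or without any of the 4 single arrays of sets 1 and 2 (0.061 to 0.115). With the replicate block (20.3% of all features past the threshold) 4 genes were higher and 1 lower.

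For scale, 10 genes that LPS is known to induce were all higher on every array, with means from 1.14 to 3.98 and Il1b, the interleukin 1 beta gene, highest. Deposited ratios show no expression level, so the cell type could not be checked by its markers: 6 macrophage genes were measured on all arrays, of which 2 were higher and 1, Csf1r, was lower (-0.21, limma adjusted p = 0.0354), a call it lost without any 1 set or array and on either orientation alone (adjusted p of 0.0574 to 0.2), and with missing arrays allowed (0.0501). Of the higher ones, Adgre1 stood at 0.83 (limma adjusted p = 0.000195, higher on 6 of 6 arrays). Spi1 (0.47) lost its call on the swapped arrays alone (adjusted p = 0.0597) and without the direct array of set 2 (0.0622). Of the markers of other cell types, 0 of 6 passed by limma (2 at an unadjusted p under 0.05, beside 28.0% of all features). The total of 1663 features was 533 to 1685 when a set or an array was left out, being 563 without set 3, 1056 without set 1, and 533 without the direct array of set 2.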

How the data were processed

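The deposited values are log2 ratios of both channels of an array for 16281 probes; the log base was read from the values, since 87.3% to 92.8% of each array's non-zero values, divided by log2 of 10, end within 7 decimals (tolerance 0.001 of the last one). How the authors normalized the dyes and corrected background is not given in the sources used here. The medians of the arrays were 0.00 to 0.02, and no centring was added. The direction, Cy5 over Cy3, is the likely one from the labels' dyes; 10 of 10 LPS-induced genes went that way on all arrays. No spot intensities were used, so how far a probe lies above background is unknown, and precision is limited by the small number of arrays.

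Exact zeros (10.8% of values) were taken as missing, which left 13224 probes with all 6 values. Probes were named through the platform annotation (13738 with 1 symbol, 52 with several, 2491 with none), and all 8 members matched RefSeq by gene ID. Signs of arrays with treated RNA in Cy3 were turned, probes of a gene averaged (11231 features), arrays of a set averaged, and the mean of the 3 sets tested against 0 in R 4.3.3 by limma 3.58.1 (lmFit and eBayes, prior degrees of freedom 4.16, two-sided, Benjamini-Hochberg, threshold 0.05). The code was tested on simulated data. Before turning, arrays of one set number deviated together from their orientation's mean (r of 0.40, 0.43 and 0.14 across features). The numbers were therefore taken to pair them. Such deviations run with the dye direction and not with the treatment, so they do not show that a set shared RNA. After turning, the consensus correlation within sets was -0.44. Alternatives were single-array fits, 1 orientation, centring, zeros kept, missing arrays allowed (at least 4), single probes, left-out sets or arrays, and trend with robust eBayes.

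Members and lists were chosen with earlier results of these data known. Besides members, each pathway list named up to 3 highest and 3 lowest genes past the threshold; for Herpud1, Ddit3 and Xbp1 the 3 nearest genes by root mean square difference were named, and other genes without a call were picked after their values were seen. Promoter motifs were searched only before the start, leaving out the bases after it that the planned window held.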

Additional observations from a re-analysis of the deposited data

How the results depend on the processing

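The rise of Herpud1 and the fall of Xbp1 kept their direction and stayed past the threshold under every alternative run. The single-probe fits covered only probes measured on all arrays, so the second Herpud1 probe (mean 0.14) was not fitted alone. With that probe averaged in, the Herpud1 rise was smaller, as given above. Left-out sets or arrays moved Herpud1 between 1.43 and 1.53 and Xbp1 between -0.64 and -0.54. Ddit3 (0.43 to 0.54 when a set or array was left out) lost its call with the treated RNA in Cy3 only, at 0.46. Atf5 ran from 0.28 to 0.40 with parts left out, in some of these runs without a call, and was 0.25 without a call with Cy5 only. Atf5 lost its call in 5 alternatives in all. Hspa5 ran from 0.15 to 0.29 with parts left out, in most of these runs without a call. It also had no call with Cy5 only (0.0718) or in single arrays without a replicate block (0.22), and lost its call in 9 alternatives in all. Atf4, 0.14 to 0.19 with parts left out, gained a call at 0.16 in single arrays with the set as a random replicate block or with a dye term. The limits of these fits are given above with Atf4. Hsp90b1 and Calr had no call under any alternative and changed sign: Hsp90b1 was -0.12 with Cy5 only and -0.16 to 0.21 with parts left out, and Calr 0.0076 with Cy3 only, 0.0204 and 0.0048 on 2 of its probes, and -0.0758 to 0.0586 with parts left out. The members past the threshold numbered 3 with Cy5 only and 3 to 5 with parts left out. All 8 differences between members kept their sign. Features past the threshold numbered 655 with Cy3 only, 639 with Cy5 only and 533 to 1685 with parts left out. Genes of the pathway lists past it numbered 17 with a dye term, 19 with the replicate block, 7 with Cy5 only and 7 to 12 with parts left out. The cause of these shifts was not tested.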

Other observations

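Some listed genes of the pathway had a probe but lacked a value on 1 or more arrays, and did not enter the main comparison. They could enter only the alternative fits with missing arrays allowed or exact zeros kept. Eif2ak3, the gene of the sensor PERK, was measured on 5 arrays, from -0.50 to 0.49, 2 of them positive. Psat1 of serine synthesis, on 4 arrays, ranged from -0.45 to 0.03. Ssr1 of the translocon complex, on 5 arrays, ranged from -0.20 to 0.13, and the mitochondrial co-chaperonin gene Hspe1, on 5 arrays, from -0.23 to 0.07, all 5 leaning to Cy3 before turning. The cytosolic chaperone gene Hsp90aa1 had positive values on the 2 arrays of one probe (0.01 and 0.21) and on the 1 array of another (0.07).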
